A study of Mus musculus with 2 samples.

Results

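The 9 genes described here, Cd96, Tigit, Crtam, Cd160, Havcr2, Lag3, Pdcd1, Ctla4 and Cd200r1, were grouped under the label of inhibitory and checkpoint receptors. They were chosen by name, and all 9 are among the 31053 genes of the files. Whether each of these lymphocyte receptors, Crtam among them, inhibits was not tested. Cell classes were set by marker genes outside the list. A dendritic epidermal T cell (DETC) had at least 3 Trdc UMIs, at least 3 UMIs of Cd3d, Cd3e and Cd3g together and no Trac, Cd4, Cd8a or Cd8b1. An αβ T cell had a Trac UMI and no Trdv4. An innate lymphoid cell (ILC) had at least 3 UMIs of Il7r, Rora and Gata3 together, at most 2 CD3 UMIs and no Trdv4. A UMI is a molecular tag that counts each captured mRNA molecule once.

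Many checkpoint receptors recruit phosphatases or compete for ligands and so dampen signals from antigen receptors and costimulatory receptors. CD96 and TIGIT share nectin family ligands with the activating receptor CD226, while PD-1 and CTLA-4 set limits on T cell activation through B7 family ligands. DETCs are γδ T cells that reside among keratinocytes and carry an almost invariant γδ TCR.

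The animals were wild-type (WT) female FVB/NJ mice, 8 weeks old, that had received an intradermal isotype control antibody or anti-Skint1 antibody 7 days earlier. From ear epidermis, CD45+EpCAM-MHC-II- cells that were alive were obtained by sorting, and 1 droplet library (10x 3′ kit, version 3) was made per treatment. A difference between the libraries therefore cannot be told apart from a treatment effect, and none was tested. The isotype library held 27272211 UMIs and the Skint1 antibody library 32450957. Cells were taken as barcodes in which 500 to 2500 genes were detected and mitochondrial UMIs did not exceed 12%. They numbered 4242 and 5961, and 5 barcode sequences occurred in both libraries.

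DETCs made up 83.5% of the cells of the isotype library (3544 cells) and 83.0% of those of the Skint1 antibody library (4945 cells). The αβ T class held 197 and 213 cells and the ILC class 82 and 139, with 9 and 14 barcodes in both of these classes. The DETC class carried Trdv4, the δ chain segment of the canonical DETC receptor, at 978 and 789 CPM, the UMIs of a gene per 1000000 UMIs of the class. The DETC rule did not ask for Trdv4, and a UMI of it was seen in 3133 of the 3544 and 4146 of the 4945 cells. The rules fixed Trdc and CD3 mRNA in DETCs, Trac in αβ T cells and Il7r, Rora and Gata3 in ILCs, so these say nothing of what the classes are. Of DETC markers that the DETC rule did not use, Tcrg-V5 was at 59.0 and 62.6 CPM in DETCs, Cd7 at 2692 and 3106 CPM and Fcer1g at 2372 and 2527 CPM. Of αβ T markers outside the rules, Cd5 was at 91.2 and 81.3 CPM in the αβ T class and Cd6 at 149 and 110 CPM, and both were under 1 CPM in DETCs. Trbc1 and Trbc2 were carried by all 3 classes, and the αβ T class also held Trdc at 299.7 and 546 CPM. Of ILC markers outside the rules, Kit was at 83.6 and 111 CPM in the ILC class, above its level in αβ T cells of the same library (4 and 21 UMIs), while Icos, at 172 and 167 CPM, lay below its level there. Il1rl1 gave 0 and 3 UMIs in the ILC class. The ILC class also held mRNA of keratinocytes, which lack CD45, and of Langerhans or myeloid cells, although the sort was for CD45 and against EpCAM and MHC class II: 6 keratinocyte markers summed to 491 and 4088 CPM (Krt14 highest, 282 and 1864 CPM) and 7 Langerhans cell or myeloid markers to 1308 and 2014 CPM (Cd74 highest, 763 and 1060 CPM). No UMI of Ptprc, the gene of CD45, was seen in 15 of the 82 and 38 of the 139 ILC barcodes. Of the keratinocyte markers Krt1 was at 0 in the isotype library, and of the myeloid markers Itgax. Their part in the ILC results was tested only by leaving out the 2 and 13 barcodes richest in keratin or MHC class II mRNA.

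Cd96, a receptor for the nectin family protein CD155, was the most abundant of the 9 mRNAs in DETCs. Isotype DETCs held 304 CPM (95% interval 296 to 313), and DETCs after Skint1 antibody held 279 CPM (272 to 287). Intervals of CPM are exact Poisson intervals and cover counting error only. Cd160, which encodes a GPI-anchored receptor for HVEM and MHC class I molecules, came next with 133 CPM (127 to 139) and 126 CPM (121 to 131). Crtam, a receptor for the adhesion protein Cadm1, followed with 65.1 CPM (61.0 to 69.3) and 54.4 CPM (51.1 to 57.8). In neither library did the intervals of these 3 genes overlap each other. UMIs are counted at the 3′ end of transcripts, so CPM was not divided by transcript length.

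Havcr2, which encodes TIM-3, was at 19.8 CPM (17.6 to 22.2) in isotype DETCs and 10.7 CPM (9.26 to 12.3) in DETCs after Skint1 antibody. Lag3, which binds MHC class II, was at 10.8 CPM (9.23 to 12.7) and 7.97 CPM (6.74 to 9.35). The order of the genes was therefore the same in both libraries down to Lag3, but the intervals of Havcr2 and Lag3 touched in the Skint1 antibody library. Pdcd1, the gene of PD-1, was at 3.14 CPM (2.30 to 4.19) and 1.07 CPM (0.653 to 1.65), and Ctla4 at 0.955 CPM (0.522 to 1.60) and 0.748 CPM (0.409 to 1.26). Tigit gave 2 UMIs in each library. Cd200r1, the receptor for CD200, gave 0 UMIs in isotype DETCs, where a count of 0 allows up to 0.205 CPM (3 counts; the Poisson interval ends at 0.252 CPM), and 3 UMIs after Skint1 antibody.

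**Figure D1:**
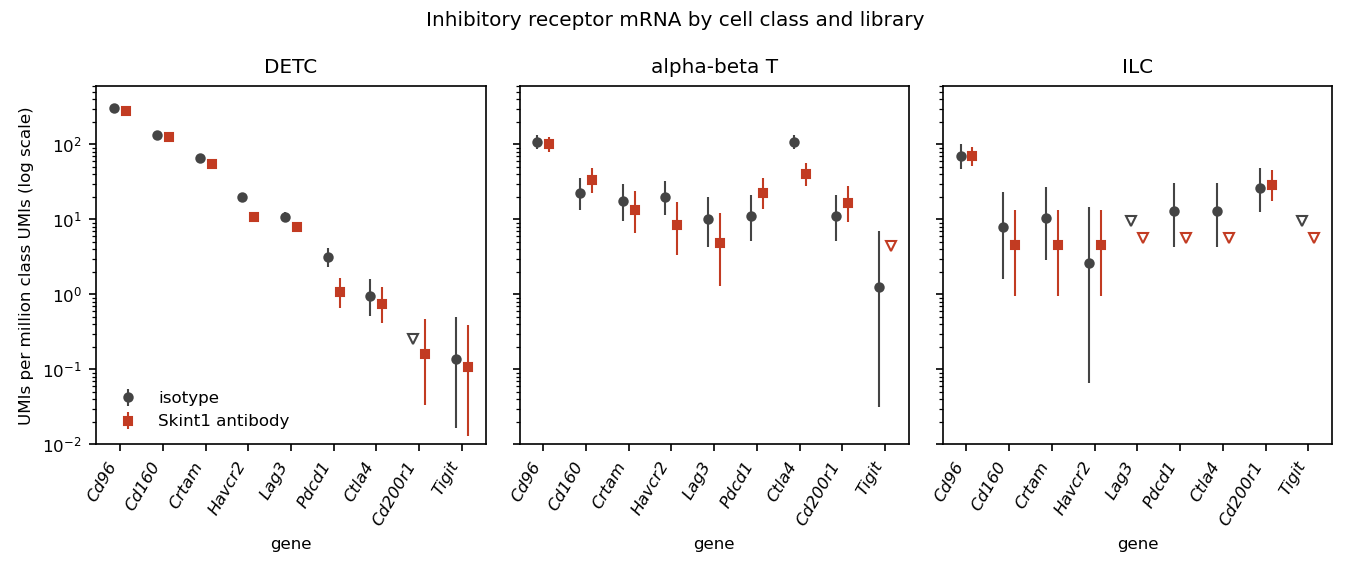
Levels of the 9 receptor mRNAs (CPM, log axis) in DETCs, αβ T cells and ILCs, with circles for the isotype library, squares for the Skint1 antibody library and bars for exact Poisson 95% intervals. Open triangles mark the upper end of the interval where no UMI was found; Cd96 leads in DETCs at 304 and 279 CPM, and Ctla4 reaches 107 CPM in isotype αβ T cells.

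Free RNA, taken from barcodes with 1 to 100 UMIs, had the same leading genes. It held Cd96 at 116 and 124 CPM, Cd160 at 80.2 and 91.3 CPM, Crtam at 32.2 and 29.0 CPM, Havcr2 at 9.32 and 5.49 CPM and Lag3 at 6.78 and 4.27 CPM. Keratin mRNA put the share of free RNA in the DETC barcodes at 1.79% and 2.14% of UMIs. Pdcd1 stood at 1.98 and 4.88 CPM in free RNA and Ctla4 at 5.08 and 3.36 CPM, so free RNA was richer in Ctla4 than DETCs were in both libraries, and richer in Pdcd1 in the Skint1 antibody library.

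In single DETCs the same order appeared as shares of cells. After each cell was thinned to 2000 UMIs, Cd96 was seen in 44.5% of isotype DETCs (Clopper-Pearson 95% interval 42.8 to 46.1) and 41.9% of those after Skint1 antibody (40.4 to 43.3). Without thinning the shares were 66.4% and 60.9%, at median depths of 4027.5 and 3577 UMIs. Thinning left out 134 and 202 DETCs. Cd160 was seen in 21.7% and 20.5% of thinned DETCs (36.3% and 33.3% unthinned), and Crtam in 11.7% and 10.1% (21.4% and 17.5% unthinned). Havcr2 was seen in 3.61% (3.01 to 4.29) and 1.81% (1.45 to 2.23), against 6.66% and 3.72% unthinned. Lag3 was seen in 1.94% (1.5 to 2.46) and 1.35% (1.04 to 1.72), against 3.78% and 2.59% unthinned. Keratinocyte-like barcodes, which should lack these mRNAs, numbered only 2 and 11, with median depths of 4022 and 6892 UMIs, and none carried a UMI of these 5 genes.

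The number of members seen in a DETC depended on depth. Among 3410 thinned isotype DETCs, 35.6% had UMIs of none of the 9, 47.1% of 1, 15.2% of 2 and 1.96% of 3, and 4 cells had 4 or more. Among 4743 thinned DETCs after Skint1 antibody, 40.2% had none, 44.9% had 1, 13.6% had 2 and 1.27% had 3, and 1 cell had 4 or more. Without thinning, 41.4% of isotype DETCs had 1 and 31.8% had 2, and after Skint1 antibody 44.0% had 1 and 27.8% had 2. Cells with and without Cd96 carried Cd160 at shares whose intervals overlapped. Cd160 was seen in 20.8% (18.8 to 23) of isotype DETCs with Cd96 and in 22.4% (20.6 to 24.4) of those without. After Skint1 antibody these shares were 21.0% (19.2 to 22.8) and 20.2% (18.7 to 21.8). Havcr2 was seen in 5.28% (3.30 to 7.95) of isotype DETCs with Crtam and in 3.39% (2.77 to 4.10) of those without. After Skint1 antibody these shares were 1.46% (0.591 to 2.99) and 1.85% (1.47 to 2.30), and the intervals overlapped in both libraries.

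Classes were compared with edgeR's quasi-likelihood test on 6 sums of UMIs, 3 classes in each of 2 libraries, with the library as a block and Benjamini-Hochberg adjustment over 7716 genes. A gene was called at an adjusted p under 0.05. The spread was the class by library interaction, with 2 residual degrees of freedom, and it includes any treatment effect that differs between classes. edgeR also drew on the spread of other genes, with a median of 10.8 prior degrees of freedom. The SEs and p values therefore rest in large part on other genes, not on a gene's own replication. Of the 9 members 7 passed the filter on low counts. Lag3, at under 12.2 CPM in every sum, and Tigit did not. Pdcd1, Ctla4 and Cd200r1 passed only through αβ T and ILC sums, so a difference from DETCs was built into their passing and their calls describe levels only.

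Cd96, Cd160 and Crtam were lower in αβ T cells than in DETCs, and Ctla4, Pdcd1 and Cd200r1 were higher. Of all tested genes 20.7% were called lower and 12.8% higher. The 3 members called higher are those that no DETC sum brought past the filter, so nothing is read from their number. Cd96 was at 107 CPM (85.9 to 133) and 100.4 CPM (80.1 to 124) in αβ T cells. Its log2 ratio to DETCs was -1.49 (SE 0.12, edgeR adjusted p = 5.38e-07), lower in both libraries. Cd160 was at 22.5 CPM (13.3 to 35.5) and 33.5 CPM (22.2 to 48.4) in αβ T cells, with a log2 ratio of -2.20 (SE 0.20, edgeR adjusted p = 1.64e-06), lower in both libraries. Crtam was at 17.5 CPM (9.56 to 29.3) and 13.2 CPM (6.56 to 23.5), with a log2 ratio of -1.97 (SE 0.24, edgeR adjusted p = 2.54e-05), lower in both libraries. With no upper gene limit the ratio of Crtam was -1.01. That of Cd160 was -2.94 with αβ T cells that had Trbc1 or Trbc2 and no Trdc, and both were still called. For each of these 3 genes the αβ T intervals lay below the DETC intervals in both libraries.

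Ctla4, Pdcd1 and Cd200r1 passed the filter through no DETC sum, so their adjusted p values against DETCs carry no weight as tests. Their ratios describe levels only. Ctla4 was the member with the widest span between αβ T cells and DETCs among those with over 3 UMIs in each class. It was at 107 CPM (85.9 to 133) in isotype αβ T cells and 40.6 CPM (28.2 to 56.8) in those after Skint1 antibody, with a log2 ratio to DETCs of 6.31 (SE 0.42, edgeR adjusted p = 1.25e-07), higher in both libraries. Pdcd1 was at 11.2 CPM (5.14 to 21.3) and 22.7 CPM (13.7 to 35.5), with a log2 ratio of 3.15 (SE 0.65, edgeR adjusted p = 0.00203), higher in both libraries. That ratio was 1.84 in the isotype library alone and 4.41 in the Skint1 antibody library alone. Pdcd1 did not pass the filter, and 2 members rather than 3 were called higher, with ILCs that had no CD3 UMI, with αβ T cells that had Trbc1 or Trbc2 and no Trdc, with at most 5% mitochondrial UMIs and, an alternative chosen after seeing the data, without barcodes in both classes. Cd200r1 was at 11.2 CPM (5.14 to 21.3) and 16.7 CPM (9.15 to 28.1). Since DETCs held 3 Cd200r1 UMIs in all, its ratio is given from counts: log2 7.29 over both libraries, with an exact conditional binomial interval of 5.56 to 9.67 for counting error only (edgeR adjusted p = 6.18e-06, higher in both libraries). Havcr2 was at 20.0 CPM (11.4 to 32.4) and 8.37 CPM (3.36 to 17.2) in αβ T cells. Its log2 ratio to DETCs was -0.11 (SE 0.34, edgeR adjusted p = 0.829), its sign differed between the libraries, and it turned with TMM scaling, so no direction is given. Lag3, which was not tested, was at 9.99 CPM (4.31 to 19.7) and 4.78 CPM (1.30 to 12.2), and these intervals overlap those of DETCs in both libraries. Of thinned αβ T cells, 17.9% (12.7 to 24.1) and 14.8% (10.1 to 20.6) carried Cd96, against 31.5% and 28.2% unthinned, at median depths of 3766 and 3581 UMIs. Ctla4 was seen in 14.2% (9.58 to 20) and 5.61% (2.83 to 9.82) of them, against 18.3% and 10.3% unthinned.

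Ctla4 was also counted in subsets of the αβ T class. Cells with a Foxp3 UMI, the transcription factor of regulatory T cells, numbered 17 and 12. They held Ctla4 at 810.2 CPM (610.4 to 1055) in the isotype library and 366 CPM (195 to 625) after Skint1 antibody. CD4 cells without Foxp3, 44 in each library, held Ctla4 at 101 CPM (57.5 to 163) and 61.6 CPM (30.7 to 110.2). CD8 cells, 25 and 17, gave 0 and 1 Ctla4 UMIs. Of the 86 Ctla4 UMIs of isotype αβ T cells 55 lay in Foxp3 cells, as did 13 of 34 after Skint1 antibody. The 111 and 140 αβ T cells in none of these subsets held 15 and 9. Without Foxp3 cells, an alternative chosen after seeing the data, the log2 ratio of Ctla4 to DETCs was 5.27. Lag3 and Havcr2 were also counted in isotype Foxp3 cells, at 73.7 CPM (23.9 to 172) from 5 UMIs and 88.4 CPM (32.4 to 192) from 6 UMIs. Foxp3 cells after Skint1 antibody held 0 Lag3 UMIs, which allows up to 84.4 CPM (3 counts; the Poisson interval ends at 104 CPM), and 1 Havcr2 UMI.

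In ILCs the members were sparse apart from Cd96 and Cd200r1. Cd96, Cd160, Crtam and Havcr2 were called lower in ILCs than in DETCs and Cd200r1 higher. Of all tested genes 21.8% were called lower and 13.5% higher. Cd160, Crtam and Havcr2 passed the filter through no ILC sum and Cd200r1 through no DETC sum, so nothing is read from these numbers of calls. Cd96 was at 70.5 CPM (46.5 to 103) and 69.8 CPM (51.1 to 93.0) in ILCs, with a log2 ratio to DETCs of -2.05 (SE 0.14, edgeR adjusted p = 1.18e-07), lower in both libraries. Cd160 gave 3 UMIs in each library, and its log2 ratio was -4.48 (SE 0.33, edgeR adjusted p = 2.11e-07), lower in both libraries. Crtam gave 4 and 3 UMIs, with a log2 ratio of -3.11 (SE 0.35, edgeR adjusted p = 1.08e-05), lower in both libraries. Havcr2 gave 1 and 3 UMIs, with a log2 ratio of -1.86 (SE 0.58, edgeR adjusted p = 0.0232), lower in both libraries. In the isotype library alone that ratio was -2.92 and in the Skint1 antibody library alone -1.23. The Havcr2 call was lost with DESeq2, without the library block and with ILCs that had no CD3 UMI.

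Cd200r1 was at 26.1 CPM (12.5 to 48.0) in isotype ILCs and 28.8 CPM (17.3 to 45) in those after Skint1 antibody. Its log2 ratio to DETCs over both libraries was 8.27 by counts (6.58 to 10.63; edgeR adjusted p = 8.96e-07, higher in both libraries). Since Cd200r1 passed the filter through no DETC sum, this adjusted p carries no weight as a test. Lag3 gave 0 UMIs in ILCs of both libraries. Against the floor of 3 counts over the group, 2.88 CPM, it was at least 3.21-fold lower in ILCs than in DETCs, while the exact conditional interval of the log2 ratio ended at -1.37. Pdcd1 and Ctla4 gave 5 UMIs each in isotype ILCs and 0 after Skint1 antibody, and neither was called against DETCs. Their log2 ratios were 1.35 and 2.54 (edgeR adjusted p = 0.412 and 0.0760), higher in the isotype library only. The ratio of Pdcd1 turned to -0.52 with no upper gene limit. That of Ctla4 was fitted at -3.24 with at most 5% mitochondrial UMIs, which left 16 and 20 ILCs. The floor over all ILCs, 2.88 CPM, already lies above the Ctla4 level of DETCs, so no direction is read from that fit. With the keratin-rich and MHC class II barcodes left out, an alternative chosen after seeing the data, Ctla4 was called higher in ILCs, so that 2 members were called higher in place of 1, as also with DESeq2 and with every gene with a UMI.

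Between αβ T cells and ILCs, Ctla4 and Cd160 were called higher in αβ T cells. Of all tested genes 5.16% were called higher, and Cd160 passed the filter through no ILC sum. In the other direction 0 members were called lower with edgeR or with DESeq2, and 0 at an unadjusted edgeR p under 0.05, against 3.01% of tested genes called lower. The log2 ratio of Ctla4 was 3.77 (SE 0.62, edgeR adjusted p = 0.00195) and that of Cd160 2.28 (SE 0.50, edgeR adjusted p = 0.0118), both higher in both libraries. In the isotype library alone these ratios were 3.04 and 1.52, and that of Cd160 was 2.88 in the Skint1 antibody library alone. The Cd160 call was lost when αβ T cells were limited to those with Trbc1 or Trbc2 and no Trdc, and with at most 5% mitochondrial UMIs. Cd200r1 had a log2 ratio of -0.95 (SE 0.52, edgeR adjusted p = 0.348), lower in both libraries. With no upper gene limit its ratio turned to 0.74, and 7 members rather than 2 were called higher. Calls rose over all genes as well in that setting, so nothing is read from the 7. TMM scaling moved the median log2 ratio of all genes from -0.15 to -0.02 for αβ T cells over DETCs and from -0.14 to 0.01 for ILCs over DETCs. The calls then split into 1227 higher and 1275 lower in place of 990 and 1598, and into 1312 and 1353 in place of 1041 and 1684, and the numbers of members called were the same.

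After Skint1 antibody, Havcr2 and Pdcd1 mRNA was lower in DETCs. Genes with at least 50 UMIs over both libraries were compared by the log2 ratio of CPM, Skint1 antibody over isotype, and a ratio of 0.5 or more in size was counted as past the fold. Of the 9 members 6 had 50 UMIs. Of these, 2 were past the fold downwards, against 2.32% of 10798 genes, and 0 upwards, against 1.79%. All 6 ratios were below 0, as were 6184 of the 10798, with a median of -0.35 against -0.03 for all 10798 genes. The comparison has no replicate check, and the intervals of ratios are exact conditional binomial intervals for counting error only. The shares over all genes were not matched for depth, and Pdcd1, with 66 UMIs over both libraries, lay near the minimum of 50.

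Havcr2 fell from 290 UMIs (19.8 CPM) to 200 UMIs (10.7 CPM), a log2 ratio of -0.89 (-1.15 to -0.62), and ranked 52nd from the lowest of the 10798 genes. Pdcd1 had 46 UMIs in 26 isotype DETCs and 20 UMIs in 18 DETCs after Skint1 antibody, a log2 ratio of -1.55 (-2.39 to -0.77). The 10 DETCs with most Pdcd1 UMIs held 65.2% and 60% of them, so the interval, which takes UMIs as independent, is too narrow for this gene. Lag3 had a log2 ratio of -0.45 (-0.78 to -0.11), which was past the fold with no upper gene limit (-0.52), in DETCs with a Trdv4 UMI (-0.63) and as a mean over cells (-0.61). Crtam had one of -0.26 (-0.39 to -0.13) and Cd96 of -0.12 (-0.18 to -0.07). The interval of Cd160 reached 0, with a log2 ratio of -0.08 (-0.17 to 0.01). Ctla4, with 14 UMIs in each library, had a log2 ratio of -0.35 (-1.53 to 0.83), and a difference was not detectable at this depth.

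DETCs with over 2500 genes, 312 and 287 barcodes outside the classes above, did not show the Havcr2 difference. Their Havcr2 level was 10.7 CPM (7.33 to 15.0) and 10.4 CPM (6.94 to 14.9), a log2 ratio of -0.04 (-0.81 to 0.72). Lag3 had a log2 ratio of -0.64 (-1.31 to 0.02) in them and Cd160 of -0.32 (-0.55 to -0.10). Pdcd1 had one of -0.27 (-3.04 to 2.29) from 4 and 3 UMIs. Whether Havcr2 differed between the cells above and below 2500 genes was not tested.

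In αβ T cells the ratio with an interval that left out 0 was that of Ctla4, at -1.40 (-2.02 to -0.81). It was -1.15 (-2.14 to -0.26) within Foxp3 cells and -0.71 (-1.96 to 0.49) within CD4 cells without Foxp3. The 10 αβ T cells with most Ctla4 UMIs held 57.0% and 64.7% of them. Havcr2 had a log2 ratio of -1.26 (-2.78 to 0.11) and Pdcd1 of 1.02 (-0.20 to 2.34) in αβ T cells. In ILCs Cd96 had a log2 ratio of -0.02 (-0.73 to 0.73) and Cd200r1 of 0.14 (-1.03 to 1.41). Pdcd1 and Ctla4 gave 5 UMIs each in isotype ILCs and 0 after Skint1 antibody, and the interval of each ratio ended at -0.66.

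DETCs were also split by mRNA of genes induced by TCR signals, after thinning to 2000 UMIs. Xcl1, a chemokine gene, was seen in 517 of the isotype DETCs and 333 of those after Skint1 antibody. Lag3 was higher in the Xcl1 cells of both libraries, by log2 1.75 (1.00 to 2.47) and 1.75 (0.79 to 2.62). It was seen in 4.26% and 3.30% of cells with Xcl1, and in 1.52% and 1.20% of cells without. By Tnfrsf9, the gene of 4-1BB, Lag3 had log2 ratios of 0.82 (-0.04 to 1.61) in isotype DETCs and 0.05 (-1.32 to 1.18) after Skint1 antibody, both with intervals that included 0. Havcr2 was higher in Xcl1 cells of the isotype library, by log2 1.04 (0.45 to 1.60), while its ratio was -0.36 (-2.02 to 0.92) after Skint1 antibody from 5 UMIs. Cells with Tnfrsf9 numbered 542 and 466, and Havcr2 was higher in them in the isotype library, by log2 1.22 (0.65 to 1.77), with a ratio of 0.35 (-0.71 to 1.27) after Skint1 antibody. Whether these ratios differed between libraries was not tested.

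Cd96 showed no such split. Its log2 ratio by Tnfrsf9 was -0.06 (-0.23 to 0.12) and -0.10 (-0.30 to 0.09), and by Xcl1 0.01 (-0.17 to 0.18) and 0.09 (-0.13 to 0.30). Crtam was higher in isotype DETCs with Tnfrsf9, by log2 0.47 (0.13 to 0.80), and in those with Xcl1, by 0.47 (0.12 to 0.81). After Skint1 antibody its ratios were 0.21 (-0.21 to 0.61) and 0.15 (-0.36 to 0.62). Cd160 was higher in isotype DETCs with Xcl1, by 0.37 (0.12 to 0.61), with a ratio of 0.25 (-0.06 to 0.56) after Skint1 antibody. These intervals after Skint1 antibody included 0. A UMI of Nr4a1, an immediate early gene, was seen in 1036 and 1361 DETCs, and the intervals of the 5 abundant members reached 0 in both libraries. Pdcd1 had 8 UMIs in Nr4a1 cells and 3 in the others after Skint1 antibody, a log2 ratio of 2.73 (0.67 to 5.28), and 0.52 (-1.44 to 2.31) in the isotype library. Ctla4 had 3 UMIs each in DETCs with and without Tnfrsf9 after Skint1 antibody, a log2 ratio of 3.2 (0.30 to 6.10), and 1.82 (-1.76 to 4.94) in the isotype library. Cycling DETCs, with at least 2 UMIs of 6 proliferation genes, numbered 58 and 62, and the intervals of the ratios that could be computed for the 5 abundant members included 0.

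**Figure D2:**
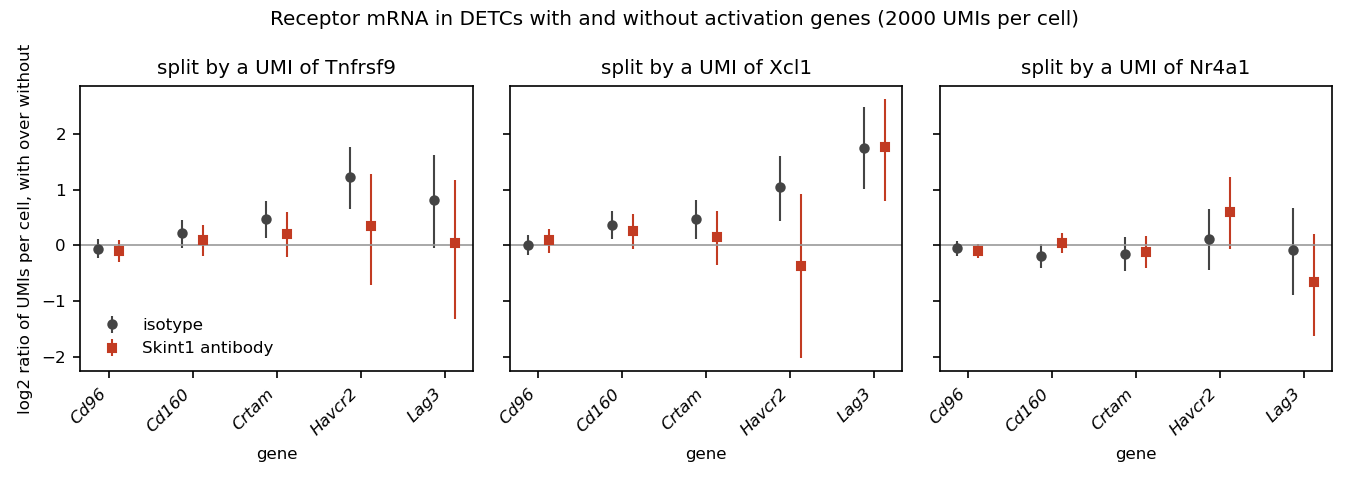
Log2 ratio of UMIs per cell between DETCs with and without a UMI of Tnfrsf9, Xcl1 or Nr4a1, for 5 receptor genes, each cell thinned to 2000 UMIs, with circles for isotype, squares for Skint1 antibody and bars for exact conditional binomial 95% intervals. Lag3 lies at 1.75 in both libraries in the Xcl1 split, and Cd96 lies near 0 in all panels.

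DETCs with neither a Tnfrsf9 nor an Xcl1 UMI were then compared between treatments, an alternative chosen after seeing the data. They numbered 2239 of 3544 and 3794 of 4945, with median depths of 3933 and 3486 UMIs. In them Havcr2 was at 13.6 and 9.74 CPM, a log2 ratio of -0.49 (-0.85 to -0.12), just inside the fold. Lag3 was at 5.88 and 5.58 CPM, a log2 ratio of -0.08 (-0.60 to 0.46). Pdcd1 had a log2 ratio of -1.68 (-2.68 to -0.75) from 31 and 15 UMIs. The count of members past the fold was then 1. That member was Pdcd1, whose UMIs in these cells fell short of the UMI minimum set for the comparison. No member that met the minimum was past the fold in them.

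**Figure D3:**
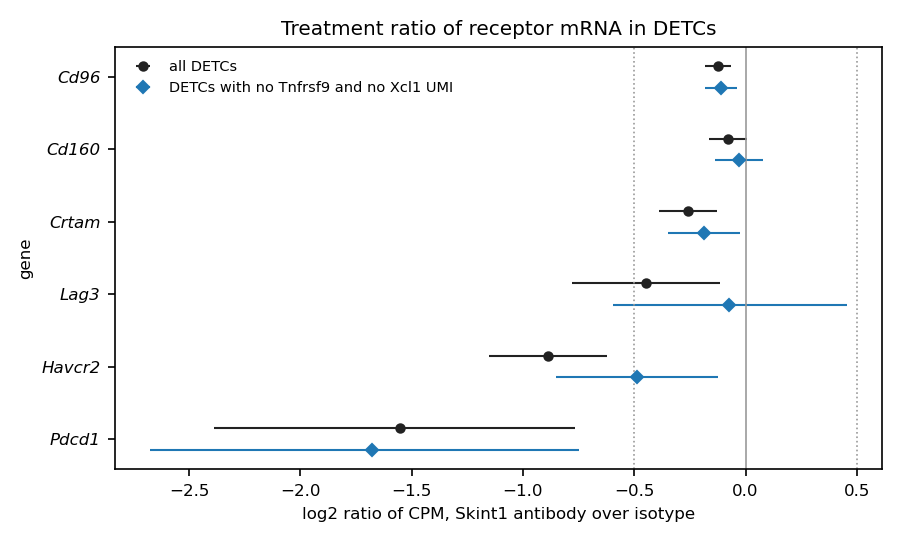
Log2 ratio of CPM, Skint1 antibody over isotype, of 6 receptor genes in all DETCs (circles) and in DETCs with no Tnfrsf9 and no Xcl1 UMI (diamonds), with bars for exact conditional binomial 95% intervals and dotted lines at the fold of log2 0.5. Havcr2 lies at -0.89 in all DETCs and at -0.49 in the second set, and Pdcd1 lies at -1.55 and -1.68.

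Partner genes of the receptors were read from lists, whose counts in DETCs stand beside the 2.32% of 10798 genes past the fold downwards and the 1.79% past it upwards. The lists were chosen with earlier results of these data known. Their counts, here and between classes, are therefore descriptions and not support, and the shares were not matched for depth. Of 9 activating partners with 50 UMIs in DETCs 3 were past the fold downwards after Skint1 antibody, and the median log2 ratio of the list was -0.06. These were Tnfrsf9 (125 to 63.5 CPM, log2 -0.97, -1.08 to -0.87), the costimulatory receptor gene Icos (12.1 to 7.59 CPM, log2 -0.67, -1.0 to -0.34) and Slamf7 (log2 -0.61, -1.34 to 0.12). Of 16 signal mediators 1 was lower, Ptpn6, which encodes the phosphatase SHP-1 that many inhibitory receptors recruit. It went from 153 to 78.3 CPM, a log2 ratio of -0.97 (-1.06 to -0.87), in a list with a median of -0.08. Of 8 other inhibitory receptors 2 were higher, Lair1, a collagen receptor, from 1.64 to 4.12 CPM (log2 1.33, 0.65 to 2.06), and Nt5e, the gene of CD73, from 3.34 to 4.76 CPM (log2 0.51, -0.01 to 1.04), with a list median of 0.07. None of 10 ligands and none of 14 transcription factors was past the fold, with medians of -0.02 and -0.07.

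The list counts between classes stand beside 12.8% of all tested genes called higher and 20.7% lower in αβ T cells than in DETCs, and 13.5% and 21.8% in ILCs. Of 11 activating partners 7 were called higher and 2 lower in αβ T cells, and 7 higher and 4 lower in ILCs. Cd226, Cd28, Icos, Tnfrsf4 and Slamf7, 5 of the 7 called higher in each contrast, passed the filter through no DETC sum, so that direction was built into their passing. Tnfrsf4, the gene of OX40, had log2 ratios to DETCs of 7.08 and 6.42, Icos of 4.81 and 4.18, and Cd28 of 5.89 in αβ T cells. The 4 called lower in ILCs were Cd244, Cd2, Tnfrsf9 and Klrk1, and the 2 called lower in αβ T cells were Cd244 (log2 ratio -2.38) and Klrk1 (-1.14), all of them named here with their values known. Cd244, the gene of 2B4, stood at 406 and 415 CPM in DETCs and at 2.61 and 4.55 CPM in ILCs, a log2 ratio of -6.75. Cd2, Tnfrsf9 and Klrk1 had ratios of -3.83, -3.03 and -1.85 in ILCs. Tnfrsf9 was at 20.9 and 4.55 CPM in ILCs and at 125 and 63.5 CPM in DETCs, so its ratio was lower in the Skint1 antibody library. Of 8 tested other inhibitory receptors 7 were called higher and 1 lower in αβ T cells, and 5 higher and 2 lower in ILCs. Since 8 of 19 listed were tested and 6 of these 8 passed the filter through no DETC sum, these counts describe levels only. Cd6 and Cd5, inhibitory scavenger family receptors, had log2 ratios of 8.64 and 8.53 in αβ T cells. In ILCs Cd6 had a ratio of 5.54, Cd101 of 4.45 and Nt5e of 4.23, and Nt5e had one of 3.8 in αβ T cells. DETCs held 8 and 2 Cd6 UMIs, or 0.546 and 0.107 CPM. Cd6 was at 149 and 110 CPM in αβ T cells and 18.3 and 12.1 CPM in ILCs, so both its ratios were larger in the Skint1 antibody library.

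Of the lists that follow, 3 of 9 tested ligands, 1 of 17 signal mediators and 2 of 14 transcription factors passed the filter through no DETC sum. Of 9 tested ligands 4 were called higher and 1 lower in αβ T cells, and 5 higher and 2 lower in ILCs. Cd274 and Pdcd1lg2, which encode the PD-1 ligands, had log2 ratios of 1.78 and 2.44 in αβ T cells, Nectin3 had one of -1.76, and Pdcd1lg2 had one of 3.59 in ILCs. H2-Aa and H2-Ab1, the MHC class II ligands of LAG-3, had ratios of 7.77 and 5.66 in the ILC class, which holds the MHC class II barcodes described above. Of 17 signal mediators 4 were called higher and 6 lower in αβ T cells, and 2 higher and 7 lower in ILCs. The adaptor gene Sla2 had a log2 ratio of -1.65 in αβ T cells and Cish of 0.95, and the adaptor gene Sh2d1a stood at 13.7 and 16.7 CPM in them and at 0.136 and 0.0535 CPM in DETCs, while Sla2, Pag1 and the kinase gene Lck had ratios of -2.52, -1.75 and -1.22 in ILCs. Of 14 tested transcription factors 9 were called higher and 3 lower in αβ T cells, and 3 higher and 4 lower in ILCs. Maf had log2 ratios of 3.62 and 3.31, Id2 of 1.43 and 0.96, and Nr4a2 of -1.63 and -3.26.

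In the GENCODE vM21 annotation of GRCm38, 3 members lie on chromosome 16. Cd200r1 spans chr16:44765736-44794978 on the plus strand, Cd96 chr16:46035657-46120251 and Tigit chr16:43648867-43664146, both on the minus strand. Ctla4 (chr1:60887000-60915832, plus) and Pdcd1 (chr1:94038305-94052553, minus) lie on chromosome 1. Havcr2 lies at chr11:46454935-46481255 (plus), Lag3 at chr6:124904361-124911705 (minus), Crtam at chr9:40969691-41004628 (minus) and Cd160 at chr3:96798763-96829351 (minus). Cd160 overlaps Pdzk1 on the other strand, and Ctla4 overlaps the pseudogene Rpl18-ps1, and UMIs of these genes are less certain where the counting could split them.

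RefSeq (GRCm38.p6) promoters matched 6 of the 9 members by symbol, and Lag3, Crtam and Cd200r1 had no entry. The 250 bases before the start are shown for the 2 members past the fold in DETCs, Havcr2 and Pdcd1, and for Cd96, the most abundant. Capitals mark matches on either strand to motifs of AP-1 (TGANTCA), NFAT (TGGAAA) and Runx (TGTGGT), which do not overlap each other here. Of 32851 promoters of this length 6.75%, 18.6% and 14.0% hold these letters. Havcr2 held an AP-1 and a Runx match, Cd96 an NFAT and a Runx match, and Pdcd1 none of the 3. A match is a description of letters, not a measured site.
Havcr2, chr11:46454681-46454930, plus strand: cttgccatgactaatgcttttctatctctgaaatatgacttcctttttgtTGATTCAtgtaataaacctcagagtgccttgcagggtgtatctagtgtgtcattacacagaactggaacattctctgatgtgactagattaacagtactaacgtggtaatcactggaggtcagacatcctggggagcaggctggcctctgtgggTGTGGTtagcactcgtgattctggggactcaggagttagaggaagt
Pdcd1, chr1:94052554-94052803, minus strand: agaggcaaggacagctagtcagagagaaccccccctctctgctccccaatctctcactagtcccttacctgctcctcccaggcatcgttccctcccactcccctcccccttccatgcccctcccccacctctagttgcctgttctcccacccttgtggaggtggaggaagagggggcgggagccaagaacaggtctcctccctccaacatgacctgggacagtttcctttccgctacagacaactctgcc
Cd96, chr16:46120249-46120498, minus strand: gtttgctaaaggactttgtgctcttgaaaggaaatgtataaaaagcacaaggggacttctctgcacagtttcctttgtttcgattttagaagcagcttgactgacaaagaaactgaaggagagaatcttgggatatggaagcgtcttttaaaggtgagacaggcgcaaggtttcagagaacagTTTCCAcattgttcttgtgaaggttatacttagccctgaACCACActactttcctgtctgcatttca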

How the data were processed

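The study deposited 2 raw matrices of UMI counts, made by the authors with Cell Ranger (3.0.2 per the file headers) on mm10 (GRCm38), 1 per treatment, each with 6794880 barcodes. The deposited counts were not normalized. The deposited gene and barcode lists (other text, no score) name their rows and columns.

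From these counts, cells were kept at 500 to 2500 genes and at most 12% mitochondrial UMIs, and classes were set by the rules in the report. UMIs were summed per class and library. Python 3.11.15, scipy 1.17.1, R 4.3.3, edgeR 4.0.16 (glmQLFit, glmQLFTest, filterByExpr, library sizes as totals) and DESeq2 1.42.0 were used. SEs were taken from the log2 ratio and its F statistic. The edgeR step was tested on simulated data with known changes. Doublets were kept: Scrublet (scanpy 1.11.5) called 1 and 0 barcodes, which is too few to have worked, so its 177 and 330 highest scores were left out as an alternative. The 9 members and the lists were chosen with earlier results of these data known. Other genes were named by rule: list genes past the fold and up to 3 per list with the smallest adjusted p in each contrast with DETCs. Another cell class, a marker, and the results that need them are not reported here. Of 19 other inhibitory receptors 18 matched by symbol, and Cd244a was matched as Cd244 by gene ID. The alternatives varied cell filters, class rules, doublets, free RNA, weighting, scaling, test, filter, block and thinning.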

Additional observations from a re-analysis of the deposited data

Results flagged for a closer look

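Pdcd1 went in opposite directions between treatments in different cells. Its log2 ratio, Skint1 antibody over isotype, was -1.55 in DETCs, from 46 and 20 UMIs. In ILCs it was at 13.1 CPM (5 UMIs) in the isotype library and at 0 after Skint1 antibody. In Foxp3 cells the log2 ratio was 2.52 (0.03 to 5.86), from 2 UMIs in 2 of 17 cells and 6 UMIs in 3 of 12 cells. Of these 6 UMIs, 4 lay in 1 cell. The counting intervals in DETCs, ILCs and Foxp3 cells leave out 0, but they take UMIs as independent. In the whole αβ T class the log2 ratio was 1.02 (-0.20 to 2.34), with an interval that included 0. The difference between the cells was not tested, and the treatment cannot be told apart from the library.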

How the results depend on the processing

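The median treatment ratio of the 6 members in DETCs was below 0 under the 8 alternatives run, from -0.43 to -0.15, and none of the 6 was past the fold upwards. Ctla4, which is not among the 6, had a log2 ratio of 0.90 with at most 5% mitochondrial UMIs, against -0.35 as reported. The number past the fold downwards, 2 as reported, was 4 at log2 0.25 and 1 at log2 1. It was 3 with no upper gene limit, with DETCs that have a Trdv4 UMI and as a mean over cells. In DETCs without a Tnfrsf9 or Xcl1 UMI (chosen after seeing the data) it was 1. That member was Pdcd1, with 31 and 15 UMIs there, under the UMI minimum of the comparison. No member that met the minimum was past the fold in those cells. Genes past the fold numbered 477 higher and 518 lower at a minimum of 20 UMIs, and 36 and 68 at 200 UMIs, against 193 and 250. With TMM scaling they numbered 229 higher and 202 lower, so the larger count was then the higher one. No paired analysis was possible because each treatment has 1 library.

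For αβ T cells over DETCs, 479 genes were called higher and 674 lower with at most 5% mitochondrial UMIs, and 712 lower with DESeq2. The log2 ratio of Havcr2 was 0.0630 with Trbc and no Trdc, 0.00782 with TMM, 0.0561 as a mean over cells, 0.0145 without the Skint1 antibody library and -0.353 without the isotype library. For ILCs over DETCs, with no upper gene limit 2527 genes were called higher and 4572 lower, and Pdcd1 had a log2 ratio of -0.52. With at most 5% mitochondrial UMIs 392 and 525 were called, and Ctla4 had a fitted ratio of -3.24, with 16 and 20 ILCs left. With no CD3 UMI 1115 were called lower, and with DESeq2 909. The members called higher were 2 in place of 1 without keratin-rich or MHC class II barcodes (chosen after seeing the data), 2 with DESeq2 and 2 with every gene with a UMI. The adjusted p of Havcr2 ranged from 6.1e-05 to 0.229.

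As reported, 398 genes were called higher and 232 lower in αβ T cells than in ILCs. For αβ T cells over ILCs, with no upper gene limit 7 members, 3090 genes higher and 1878 lower were called, and Cd200r1 had a log2 ratio of 0.74. With at most 5% mitochondrial UMIs these were 1 member, 83 and 63. With no CD3 UMI 220 and 153 genes were called, with Trbc and no Trdc 1 member and 261 higher, and with DESeq2 236 and 151. Pdcd1 had a log2 ratio of -0.22 without the Skint1 antibody library. The cause was not tested for any of these. Of 330 values of a member's class contrast 8 changed sign, 5 lost and 8 gained a call. The class contrasts had the library as a block. Leaving out a library gives a value with no test, and the classes with few UMIs (ILCs, subsets) limit the precision.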

Other observations

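Barcodes in no class, 428 and 678, held Cd96 at 162 CPM (144 to 181) and 185 CPM (169 to 202) and Ctla4 at 15.4 CPM (10.3 to 22.1) and 10.4 CPM (6.92 to 15.0).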
